A study of Mus musculus with 81 samples.

Results

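This section follows open chromatin between 36 h and 60 h of fibroblast reprogramming. The 137173 peaks of the 36h bulk list were sorted by whether they overlapped a peak in none, some or all of the 4 proliferation fractions of 60h. The 84465 merged regions of the 60h lists were sorted by whether they overlapped any 36h peak. Both sets together hold 139518 regions, since 2345 of the 60h regions lay outside the 36h list. Of the 81 samples of the series, 15 samples in 5 groups stand behind these lists. Overlap means at least 1 shared base pair throughout.

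All of these cells were mouse embryonic fibroblasts (MEFs) of passages 2-3, on a Black6-129X1/SvJ background and heterozygous for Col1a1::tetOP-OKSM, R26-M2rtTA and Oct4GFP. Doxycycline at 2 µg/mL switched on the OKSM cassette (Oct4, Klf4, Sox2 and Myc) through the ubiquitously expressed transactivator, in medium with LIF and ascorbic acid at atmospheric oxygen, after growth at 5% oxygen. The 60h cells were stained with the dye CellTrace Violet, which is diluted at each division, induced for 60 h and sorted into the fractions Q1, Q2, Q3 and Q4, with 3 samples each. The labels do not say which of these fractions was brightest. The 36h cells, 3 samples, had been pulsed with 20 µM EdU for 10 minutes, and their bulk library is the tagmented DNA that streptavidin left unbound. The lists set beside them come from MEFs at 6h and 12h of induction and from EdU-captured nascent and mature DNA of 12h and 36h. Others come from a second 36h bulk arm of the mature (chased) cells and from uninduced 129/Ola wild-type embryonic stem (ES) cells at 0h. The bulk list of EpiLC cells at 48h took the place of the ES cell list in a check of the ES cell shares. The same EdU pulse is recorded for all the groups behind these added lists. None is recorded for the 60h cells or for the 14h libraries described next. A further experiment at 14h added 5 µg/mL aphidicolin, an inhibitor of replicative DNA polymerases, 4 h after induction for 10 h, with 3 treated and 3 untreated libraries. The cassette holds the coding sequences of Pou5f1, Sox2 and Klf4, so that reads in their exons cannot be told apart from transgene reads.

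ATAC-seq reads out where the Tn5 transposase can enter chromatin. Promoters of widely used genes lie open in nearly every cell type, whereas distal elements open and close with cell identity. In fibroblasts, many distal elements carry sites of AP-1 and TEAD factors. During reprogramming, such elements are known to close while elements bound by Oct4 and Sox2 open. Cells that divide fast are known to reprogram more often than cells that divide slowly.

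Each group is represented by 1 deposited list, so a difference between lists had no replicate check. Shares are given with 95% Wilson intervals, which cover counting error only, and neighbouring sites are not independent. The 36h list was called on merged replicates, whereas each 60h list is a consensus of its group trimmed to shared bases, with scores taken from 1 library. The read depth behind these lists is unknown, and the stringency of the lists, the EdU pulse and time cannot be told apart. In bulk chromatin, fewer cells with an open site and less opening per cell cannot be told apart. As a check of the labelled cell type, 6 of the 7 fibroblast marker genes with a promoter window had a promoter peak at 36h that was found in all 4 fractions (Col1a2, Col3a1, Prrx1, Twist1, Twist2 and Vim), and Pdgfra had none. Of ES cell markers, only Tfcp2l1 of 6 did so, and no peak overlapped the promoter window of Nanog, Pou5f1 or Zfp42. At Pou5f1 a peak of score 4252, found in all 4 fractions, lay outside the window but within 1 kb of a gene end. The same held for 1 of 3 macrophage and blood markers (Cd68), 2 of 5 endothelial markers (Kdr, Tek) and 2 of 6 muscle and neural markers (Map2, Tubb3).

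The promoters of 8 genes stand for the classes described here, each chosen after its values were seen. Each window is 300 bases of RefSeq sequence on GRCm38.p6, the build the mm10 coordinates of the lists refer to, with 250 bases before and 50 after the annotated start, written 5′ to 3′ on the gene's strand. Capitals mark matches, on either strand, to AP-1 (TGANTCA), TEAD (GGAATG), octamer (ATGCAAAT), SOX (CATTGT), GC box (GGGCGG) or ETS (CCGGAAGT) motifs. The first 4 had a 36h peak found in no fraction: Sprr2b (chr3:92316455-92316754, plus strand, score 1457), encoding a cornified envelope protein of the epidermis, S100a4 (chr3:90603520-90603819, plus strand, score 260), the fibroblast-specific protein of the S100 family, Dnmt3l (chr10:78055085-78055384, plus strand, score 256), a cofactor of de novo DNA methylation, and Otx2 (chr14:48665060-48665359, minus strand, score 202), a homeodomain factor of the formative epiblast. Sprr2 genes are near-identical copies in a cluster, so the assignment of reads to Sprr2b is uncertain.
Sprr2b: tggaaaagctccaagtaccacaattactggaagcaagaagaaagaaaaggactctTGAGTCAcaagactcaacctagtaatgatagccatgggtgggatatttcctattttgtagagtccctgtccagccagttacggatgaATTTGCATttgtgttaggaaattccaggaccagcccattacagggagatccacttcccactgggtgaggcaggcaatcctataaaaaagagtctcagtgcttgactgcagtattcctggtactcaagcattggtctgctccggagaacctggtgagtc
S100a4: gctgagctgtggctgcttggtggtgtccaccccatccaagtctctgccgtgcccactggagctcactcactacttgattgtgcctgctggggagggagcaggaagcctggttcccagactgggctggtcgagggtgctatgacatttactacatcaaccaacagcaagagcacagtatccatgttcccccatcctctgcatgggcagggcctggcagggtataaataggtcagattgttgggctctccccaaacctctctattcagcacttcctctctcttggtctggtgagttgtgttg
Dnmt3l: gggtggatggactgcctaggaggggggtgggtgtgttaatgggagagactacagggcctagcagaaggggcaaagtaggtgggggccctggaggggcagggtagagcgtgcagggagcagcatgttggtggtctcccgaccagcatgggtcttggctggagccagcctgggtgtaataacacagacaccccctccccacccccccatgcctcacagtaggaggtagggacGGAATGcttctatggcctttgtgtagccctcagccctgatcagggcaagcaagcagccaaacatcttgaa
Otx2: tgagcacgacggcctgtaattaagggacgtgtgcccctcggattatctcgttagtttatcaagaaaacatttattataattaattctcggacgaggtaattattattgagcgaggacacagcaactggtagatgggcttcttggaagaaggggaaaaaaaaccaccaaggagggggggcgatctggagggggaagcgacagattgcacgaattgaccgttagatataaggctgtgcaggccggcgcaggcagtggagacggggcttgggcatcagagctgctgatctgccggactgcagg
The Sprr2b window holds an AP-1 and an octamer match, and Dnmt3l a TEAD match. The Dnmt3l window lies inside the gene model (chr10:78042287-78063622), not at its outer end. The S100a4 and Otx2 windows hold none of the 6 motifs.

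Another 2 windows had a 36h peak found in some fractions: Alpl (chr4:137796335-137796634, minus strand, score 2319, found in Q1, Q2 and Q3), encoding the alkaline phosphatase used as an early reprogramming marker, and Postn (chr3:54359017-54359316, plus strand, score 1209, found in Q3 and Q4), encoding the matrix protein periostin. The Acta2 window (chr19:34255324-34255623, minus strand, score 6265), of smooth muscle actin, lay under a peak found in all 4 fractions. The Iqub window (chr6:24515018-24515317, minus strand), of a protein of cilia, held a 60h region found in all 4 fractions with no 36h peak.
Alpl: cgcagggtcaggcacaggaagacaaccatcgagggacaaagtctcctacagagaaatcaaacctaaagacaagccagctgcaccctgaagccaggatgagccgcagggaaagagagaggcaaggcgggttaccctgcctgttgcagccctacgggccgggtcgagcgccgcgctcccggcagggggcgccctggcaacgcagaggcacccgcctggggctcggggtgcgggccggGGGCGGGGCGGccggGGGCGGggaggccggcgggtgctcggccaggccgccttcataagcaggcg
Postn: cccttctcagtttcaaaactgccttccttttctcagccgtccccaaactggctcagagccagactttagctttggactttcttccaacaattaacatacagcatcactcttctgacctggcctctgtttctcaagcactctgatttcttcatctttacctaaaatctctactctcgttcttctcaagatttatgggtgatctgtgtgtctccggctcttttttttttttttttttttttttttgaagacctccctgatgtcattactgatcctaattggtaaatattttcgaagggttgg
Acta2: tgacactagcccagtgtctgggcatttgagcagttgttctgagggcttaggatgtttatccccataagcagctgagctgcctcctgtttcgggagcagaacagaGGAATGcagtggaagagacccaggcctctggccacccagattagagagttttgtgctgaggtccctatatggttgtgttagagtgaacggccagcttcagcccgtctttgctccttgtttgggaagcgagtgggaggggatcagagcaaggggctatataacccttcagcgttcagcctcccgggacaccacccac
Iqub: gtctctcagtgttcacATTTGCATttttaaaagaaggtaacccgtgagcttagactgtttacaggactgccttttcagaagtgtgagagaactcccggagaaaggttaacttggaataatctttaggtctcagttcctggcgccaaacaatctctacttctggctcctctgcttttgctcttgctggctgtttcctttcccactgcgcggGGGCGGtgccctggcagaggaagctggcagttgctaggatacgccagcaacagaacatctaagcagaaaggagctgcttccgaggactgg
The Alpl window, at 70% G and C, holds 3 overlapping or neighbouring GC boxes, and Postn, at 40%, holds none of the motifs. Acta2 has 1 TEAD match, and Iqub has 1 octamer and 1 GC box match. The Alpl, Dnmt3l, Otx2, Sprr2b and Iqub windows overlapped an ES cell peak, and the S100a4, Postn and Acta2 windows did not.

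Fibroblast sites of 36h were found again at 60h chiefly where they had been strong. Of the 137173 peaks, 58045 (42.3%, interval 42.1 to 42.6) were found in no fraction, 33815 (24.7%) in some and 45313 (33.0%) in all 4. By the number of fractions, 10997 peaks were found in 1, 8634 in 2 and 14184 in 3. The fractions held 48.4% (Q1), 45.1% (Q2), 50.8% (Q3) and 39.4% (Q4) of the 36h peaks, in lists of 71163, 64930, 73518 and 57762 peaks. The median authors' score, which gives the strength of a peak within its list, was 187 for peaks in no fraction, 514 for peaks in some and 1965 for peaks in all 4. The median widths were 266, 403 and 661 bp in the same order of classes. The division was sharp in position. Only 7 of the peaks found in no fraction lay within 100 bp of a 60h region, and 5897 lay within 1000 bp. Their median gap was 7573 bp. Peaks found in at least 1 fraction shared a median of 321 bp with their best match.

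Sorted by score into 10 classes of equal size (deciles), the share found in no fraction was 92.8% in the weakest decile, 49.1% in the fifth, 14.9% in the seventh and 0.029% in the strongest. Comparisons of classes that could follow strength alone are given below within deciles where the text says so, mostly within the seventh, whose 13717 peaks scored 693 to 1053 and still fell into all classes.

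**Figure D1:**
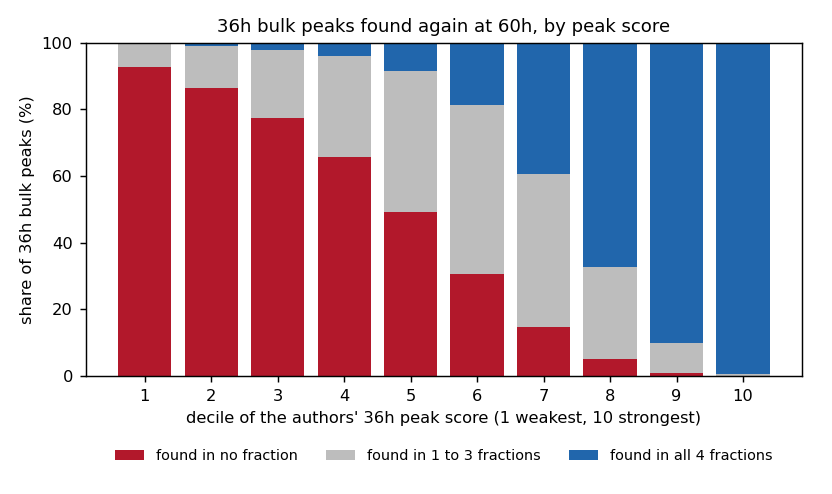
Share of 36h bulk peaks (y axis, percent) found in no (red), 1 to 3 (grey) or all 4 (blue) fractions of 60h, by decile of the authors' 36h score (x axis, 1 weakest to 10 strongest). The red share is 92.8% in the weakest decile and 14.9% in the seventh.

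Sites that were found in no fraction were less often open in ES cells. An ES cell peak overlapped 22.9% (22.6 to 23.3) of the peaks in no fraction, 43.4% of those in some and 62.9% (62.5 to 63.3) of those in all 4. Within deciles of the score, the gap was small among weak peaks and large among strong ones. In the weakest decile 23.2% of the peaks in no fraction and 24.4% of those in all 4 had an ES cell peak, in the fifth 23.4% and 46.1%, and in the sixth 20.3% and 53.1%. In the seventh decile, 13.6% (12.2 to 15.2) of the 2041 peaks found in no fraction had an ES cell peak, against 58.7% (57.4 to 60.0) of the 5399 peaks found in all 4. In the eighth decile the shares were 11.5% of 724 and 60.8% of 9208 peaks. Gene ends (within 1 kb) accounted for 5.23%, 8.34% and 26.0% of peaks in no, some and all fractions. With peaks near gene ends left out, the ES cell shares in the seventh decile were still 13.2% in no fraction and 55.0% in all 4. Presence early in reprogramming showed no such gap in the seventh decile, with a 6h peak at 93.4% of the peaks in no fraction and at 92.3% of those in all 4. Over all deciles together the shares were 67.5% and 96.0%. They were 50.1% and 63.4% in the weakest decile, with 41 peaks in all 4, and 67.9% and 61.9% in the third.

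Sorting the 36h peaks by their origin gave the same picture from the other side. A peak present at 6h but not in ES cells (62321 peaks, called fibroblast-only here) was found in no fraction in 50.9% of cases, and a peak present in both lists (46581 peaks) in 15.9%. For peaks in ES cells but not at 6h (9898 peaks, called ES-only here) the share was 59.4%, and for peaks in neither (18373) it was 70.8%, but their median scores, 223.5 and 165, were well below the 430 and 1128 of the first 2 sets. In the seventh decile the order changed. There, 25.2% (24.1 to 26.2) of fibroblast-only peaks were found in no fraction, against 12.3% of peaks in neither list, 8.48% (6.44 to 11.1) of ES-only peaks and 3.99% (3.52 to 4.53) of peaks in both. The intervals of the fibroblast-only and the ES-only peaks did not overlap.

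**Figure D2:**
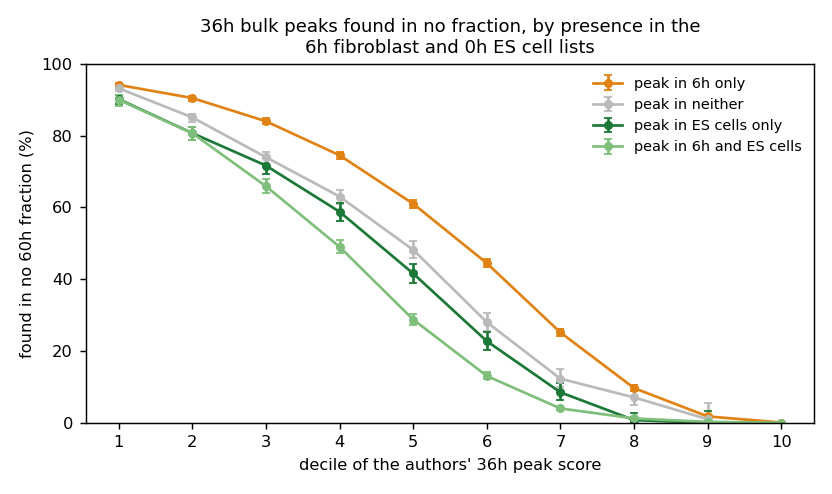
Share of 36h bulk peaks found in no fraction of 60h (y axis, percent, with 95% Wilson intervals) by decile of the 36h score (x axis), for peaks also present at 6h only, in neither list, in ES cells only or in both lists. Sets of very few peaks in the strongest decile are left out. In the seventh decile fibroblast-only peaks stand at 25.2% and ES-only peaks at 8.48%.

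The time at which a site had first been called was set beside its class. Of 108902 peaks already present at 6h, 36.0% were found in no fraction and 39.9% in all 4. For the 17309 peaks first seen at 12h the shares were 56.9% and 9.66%, and for the 10962 first seen at 36h they were 82.4% and 1.49%. The median scores of the last 2 sets, 240 and 131, were low, and within deciles the order did not hold. Of the seventh-decile peaks, 15.3% of the 12446 peaks present at 6h were found in no fraction, 9.48% of the 1171 first seen at 12h and 24% of the 100 first seen at 36h. Peaks first seen at 12h had a lower share in no fraction than peaks present at 6h in deciles 1 to 9. The second 36h bulk list, of the mature arm, held 82.5% of the peaks found in no fraction, 96.8% of those found in some and 99.8% of those found in all.

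Chromatin captured after replication at 36h covered the kept sites more than the others. In the seventh decile the 36h mature list, from DNA replicated about 2 hours before harvest, overlapped 14.7% of the peaks found in no fraction and 28.8% of those found in all 4. The nascent list, from DNA replicated within the 10 minutes of the pulse, overlapped 0.29% and 4.59% of them. In the eighth decile the nascent shares were 0.14% and 11.8%. With peaks near gene ends left out, the seventh-decile shares were 14.5% and 24.9% in the mature list and 0.20% and 2.29% in the nascent list. The mature list of 12h showed no such gap, with 61.5% and 60.0% in the seventh decile and 76.4% and 77.9% in the eighth. The 36h lists are short, with 38418 and 15200 peaks, so that absence from them does not show a closed site.

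The 4 fractions did not hold the same sites, and Q4 stood apart. Among seventh-decile peaks, ES-only sites were found in 83.6% (Q1), 75.3% (Q2), 82.1% (Q3) and 35.9% (Q4) of cases. Fibroblast-only sites were found in 51.9%, 47.4%, 60.9% and 52.2%. Q4 had the shortest list, so each list was also cut by its own scores to 57762 peaks, a step added after these values had been seen. ES-only sites then stood at 63.4%, 64.1%, 54.5% and 35.9% (32.0 to 40.0 in Q4), and fibroblast-only sites at 42.0%, 41.6%, 48.0% and 52.2% (51.0 to 53.4 in Q4). At equal length, Q4 thus had the lowest share of ES-only sites and the highest share of fibroblast-only sites. Sites present in both lists stood at 79.2%, 80.2%, 77.3% and 57.7%, and sites in neither list at 53.6%, 52.9%, 46.6% and 38.4%, so that the lower share in Q4 was not limited to sites with an ES cell peak. Each fraction is 1 list here, and the scores that cut it come from 1 library.

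**Figure D3:**
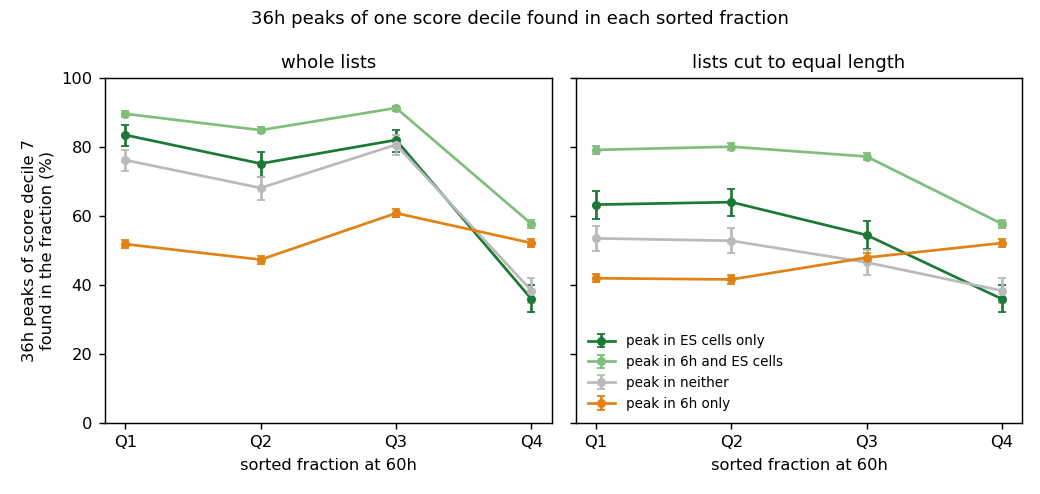
Share of 36h peaks of score decile 7 found in each sorted fraction (y axis, percent, with 95% Wilson intervals; x axis, Q1 to Q4), by presence in the 6h and ES cell lists, for whole lists (left) and lists cut to 57762 peaks (right). Fibroblast-only sites stand at 52.2% in Q4, above the 35.9% of ES-only sites there, and below them in Q1.

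The pattern of fractions in which a peak was found repeated this. The most frequent incomplete pattern was presence in Q1, Q2 and Q3 without Q4, at 11067 peaks, of which 60.9% (60.0 to 61.9) had an ES cell peak. The 2871 peaks found in Q4 alone had one in 12.2% of cases, and the 2048 found in Q3 and Q4 in 15.6%. The 2947 peaks found in Q1 alone stood at 47.1%. A 6h peak was present at 95.9% of the peaks of Q4 alone and at 76.3% of those missing only in Q4. In the seventh decile the ES cell shares were 67.8% of 2812 peaks missing only in Q4 and 8.97% of 580 peaks in Q4 alone.

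Few regions were new at 60h beside the longer 36h list of 137173 peaks. With that list cut by score to 84465 peaks, 12318 regions (14.6%) were new. The values below are against the whole list. Of the 84465 regions, 2345 (2.78%, 2.67 to 2.89) overlapped no 36h bulk peak, and 1638 overlapped none in either 36h arm. New regions were narrow, with a median width of 150 bp against 319 bp for regions with a 36h peak, and 1359 of them were found in 1 fraction only. The new share was 9.93% of the regions found in 1 fraction, 5.67% in 2, 2.02% in 3 and 0.28% in all 4, where it came to 131 regions. An ES cell peak overlapped 32.4% (30.5 to 34.3) of the new regions, against 53.6% of the regions with a 36h peak. Many were not new to the time course, since 30.1% had a 6h peak and 56.1% a 12h peak. A further 825 had no peak at 6h, 12h or in either 36h arm, and 241 of these had an ES cell peak. The ES cell list overlapped 39.1% of the 606 new regions found in Q1 alone and 16.1% of the 137 found in Q4 alone.

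The 10 widest regions that were new in both arms and found in all 4 fractions measured 347 to 718 bp. None lay within 1 kb of a gene end, 5 had an ES cell peak, and 6 had a 6h peak. The widest (chr6:37207683-37208400) lay inside Dgki, a diacylglycerol kinase gene, with authors' scores of 202, 502, 168 and 34 in Q1 to Q4, and was present at 6h, 12h and in ES cells. A region 19552 bp from Itih5, an inter-alpha-trypsin inhibitor heavy chain gene (chr2:10276081-10276494), scored 193, 227, 414 and 131 and had an ES cell peak but no 6h or 12h peak. The regions 30813 bp from Dennd4c (chr4:86717268-86717705) and 51167 bp from Tns3 (chr11:8715925-8716299) had no peak at 6h, at 12h or in ES cells, with scores of 255, 233, 387 and 201 and of 612, 871, 809 and 176.

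Among pluripotency genes, 16 of 17 loci of the naive list and 15 of 15 of the general list (the gene with 10 kb on each side) had peaks at 36h. So did 18 of 18 epithelial, 7 of 7 endothelial and 8 of 8 muscle and neural loci. The strongest peak at Nanog, Sall4, Lin28a, Esrrb, Sox2, Pou5f1 and Klf4, and at Tfap2c of the early reprogramming list, was found in all 4 fractions. The peaks in all 4 fractions at these genes were already present at 6h. Prdm14, Tcl1, Nr0b1, Dppa5a, Dppa2 and Dppa4, of the same 2 pluripotency lists, had 36h peaks but none in all 4 fractions. Nanog, a core factor of naive pluripotency, had 2 peaks of the 6 called in ES cells. One (chr6:122702429-122703240, score 6289) was found in all 4 fractions, and the other (chr6:122719905-122720274, score 1056) in Q1, Q2 and Q3. Sall4, a zinc finger factor of ES cells, had 3 peaks, with scores of 1604 and 1333 in all 4 fractions and 729 in Q1 alone. Lin28a, an RNA-binding protein that blocks let-7, kept a peak of score 4946 in all fractions, and a peak of score 248 was found in none. Tfap2c, an early reprogramming factor, had 1 peak in all 4 fractions (score 1343), 1 in Q1 (440) and 1 in Q2 (625).

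Esrrb, an orphan nuclear receptor of naive cells, had 10 peaks of which 2 were found in all fractions (scores 1546 and 1166) and 4 in none, against 45 peaks at the locus in ES cells. The strongest of the 4 (chr12:86395356-86395901, score 877) had both a 6h and an ES cell peak. Zfp42, a naive marker, had no peak at 36h or 60h and 10 in ES cells. Sox2 had 3 peaks, of which the strongest (chr3:34650416-34651355, score 1578) was found in all 4 fractions, the second (879) in Q1 and Q2 and the third (364) in Q1. Pou5f1 had 7 peaks, with scores of 4252 and 3533 in all 4 fractions, 1126 in Q1 and Q2 and 52 to 244 in none. Klf4 had 3 peaks in all, 1 in some and 3 in no fraction. As stated above, transgene reads in the exons of these 3 genes cannot be told apart.

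All 3 peaks of Otx2 were found in no fraction, with scores of 55 to 202. All 3 had an ES cell peak, and 1 of them also a 6h peak. Fgf5, a growth factor of the formative epiblast, had 2 peaks in all 4 fractions, 1 in Q3 and 1 in none. The single peak of Epcam, an epithelial adhesion molecule (chr17:87636215-87637143, score 458), was found in Q1, Q2 and Q3. It had both a 6h and an ES cell peak. Cdh1, the gene of E-cadherin, had 14 peaks, 6 in all fractions, 4 in some and 4 in none. Of 96 peaks of the formative list, 17 were missing in Q4 only, and of 72 peaks of the naive list, 14 were, beside 8.07% of all 36h peaks. None of either list was found in Q4 alone, which held 2.09% of all 36h peaks, so that few were to be seen in lists of this size.

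Fibroblast matrix genes had 212 peaks at 36h, the largest number of the 15 lists, of which 103 were in no fraction, a share near the 42.3% of all peaks. Fn1, the gene of fibronectin, had 16 peaks, of which 12 were in no fraction (scores 45 to 740), 2 in some and 2 in all (scores 3762 and 1213). Col1a1 had 5 of 12 peaks in no fraction, Col1a2 had 5 of 9 and Col3a1 had 4 of 7, all of them genes of fibrillar collagen chains. Col5a1 and Col5a2, of the fibril-regulating collagen V, had 13 of 25 and 11 of 17 in no fraction. Pdgfrb, a growth factor receptor of mesenchymal cells, had 6 of 11, and Cd44, the hyaluronan receptor, 9 of 17. Thy1, a surface antigen that fibroblasts lose early in reprogramming, had peaks of scores 5251 and 3685 in all 4 fractions, of 169 and 349 in Q1, Q2 and Q3 and of 960 in none.

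Among transcription factors of mesenchymal cells, Runx1 had 15 of 35 peaks in no fraction and 14 in all 4, and Runx2, a bone factor, 13 of 34 in none. Prrx1 had 10 of 19 in none, and the repressors of epithelial genes Zeb1 and Zeb2 had 8 of 16 and 5 of 17. Snai2 kept 1 peak (score 4579) in all fractions and had 1 (score 248) in none, and Twist1 had 2 of 4 in none. Glis1, a zinc finger factor that aids reprogramming, had 15 of 29 in none. AP-1 and immediate early genes had the highest median score of the 15 lists, 1096.5. Junb had 4 peaks in all fractions and 1 in Q1, Q2 and Q3. Fosl1 had 4 in all (scores 1423 to 4170) and 1 in none (753), and Fosl2 had 5 of 9 in none with scores of 73 to 176. Tead1, which binds DNA for the coactivator Yap1, had 12 of 35 peaks in none and 4 new regions, of which 1 was found in all 4 fractions (chr7:112841969-112842279). Yap1 had 8 of 15 in none. Cdkn1a, the p21 inhibitor of the cell cycle, had 3 peaks in all, 3 in some and 0 in none.

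Over whole lists, the share of 36h peaks found in no fraction followed the scores of the loci. It was lowest for AP-1 and immediate early genes, at 21 of 94 (22.3%, 15.1 to 31.8), and highest for fibroblast matrix genes, at 103 of 212 (48.6%, 41.9 to 55.3), and muscle and neural genes, at 21 of 43 (48.8%, 34.6 to 63.2). Peaks of the same score deciles taken over the whole 36h list would give 26.6%, 46.3% and 45.0%. The p53 and senescence list had 23 of 80 (28.7%, 20.0 to 39.5) against 38.4% at the same deciles, naive pluripotency 26 of 72 (36.1%) against 44.2%, general pluripotency 18 of 55 (32.7%) against 37.2% and formative epiblast 35 of 96 (36.5%) against 42.0%. Mesenchymal transcription factors had 78 of 201 (38.8%) against 42.2%, YAP and TEAD genes 53 of 153 (34.6%) against 36.8%, epithelial genes 36 of 92 (39.1%) against 42.3% and early reprogramming genes 34 of 89 (38.2%) against 43.9%. S phase and mitosis genes had 35 of 95 (36.8%), ubiquitous promoters 36 of 106 (34.0%), endothelial genes 28 of 64 (43.7%) and macrophage and blood genes 8 of 25 (32%). In each of the 15 lists the interval held the share given by the score deciles, so that no list differed from peaks of its own strength beyond counting error at this window. Within gene bodies alone, the share of the p53 and senescence list was 9.38% of 32 peaks and that of the ubiquitous list 24.4% of 41, and these were not set against their deciles. New regions were few at every list, with 7 of 114 for YAP and TEAD genes as the most.

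**Figure D4:**
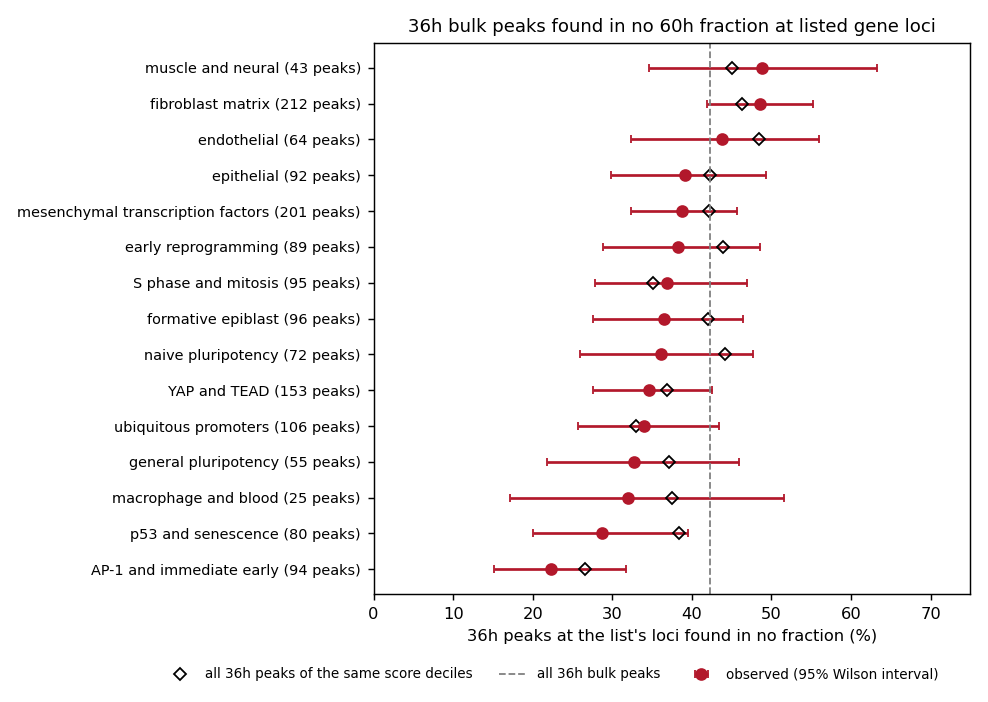
Share of 36h peaks at the loci of 15 gene lists found in no fraction of 60h (x axis, percent; red points with 95% Wilson intervals), beside the share of all 36h peaks with the same score deciles (open diamonds) and of all 36h peaks (dashed line, 42.3%). The diamonds lie within the intervals of all 15 lists, and fibroblast matrix genes stand at 48.6%.

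Promoters of the 2 ends of the comparison differed in sequence, and also in the strength of their peaks. Of 32851 RefSeq promoter windows, of 27025 genes, 1011 lay under a 36h peak found in no fraction, 1727 under one found in some, 13008 under one found in all, 40 under a new region only, and 17065 under none. The median G and C content was 52.7%, 59.3% and 62.0% for windows in no, some and all fractions. Their median 36h scores were 172, 516 and 3421.5 in the same order. Within windows of 50 to 60% G and C they were 172 in no fraction and 3260 in all. The motif shares below were not compared at equal scores, so class and strength cannot be told apart in them. The AP-1 motif TGANTCA was present in 14.8% (150 of 1011), 8.92% and 4.88% (635 of 13008) of them, against 7.81% of all windows. The GC box GGGCGG, as seen in the Alpl window, was present in 32.6%, 51.8% and 67.3%, against 35.7% of all windows. The ETS motif CCGGAAGT was present in 1.19%, 1.85% and 8.32%, against 3.89% of all. Within windows of 50 to 60% G and C, the AP-1 shares were 14.4% in no fraction and 6.39% in all, the GC box shares 29.3% and 51.0%, and the ETS shares 1.08% and 9.77%. The TEAD motif stood at 17.4% in no fraction and 11.9% in all, against 14.7% of all windows. The octamer (1.74% of all windows) and SOX (12.6%) motifs stood at 2.27% and 13.9% in no fraction and at 1.48% and 6.70% in all. The AP-1 motif reads the same on both strands, and none of the motifs contains another.

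Of the 231 listed genes, 160 had a promoter window. Promoters under peaks found in all fractions, beside 13008 of 32851 windows in all, were 10 of 10 for YAP and TEAD genes, 18 of 18 for S phase and mitosis genes, 15 of 16 for ubiquitous genes, 11 of 12 for p53 genes and 11 of 13 for AP-1 genes. They were 10 of 13 for mesenchymal transcription factors, 9 of 14 for fibroblast matrix genes, 6 of 9 for formative, 5 of 12 for naive and 4 of 10 for general pluripotency genes, 3 of 6 for early reprogramming genes and 2 of 13 for epithelial genes. Endothelial (2 of 5), muscle and neural (2 of 6) and macrophage and blood genes (1 of 3) had too few windows to be set against the share of all windows. Promoter peaks found in no fraction, named here after their classes were seen, were those of Dnmt3l, L1td1, Otx2, Cldn4, Krt18, Ocln, Icam1, S100a4, Lyz2 and Erg. Those of S100a4 (260) and Dnmt3l (256) scored in the fourth decile and that of Otx2 (202) in the third. In these deciles 65.6% and 77.4% of all 36h peaks were in no fraction. Other peaks at these loci were kept: 6 of 7 at S100a4, 2 of 5 at L1td1 and 1 of 4 at Dnmt3l were found in all 4 fractions. Promoter peaks found in some fractions were those of Esrrb, Sox2, Sall2, Ovol2, Alpl, Tfap2a, Postn, Foxf2, Meox2 and Eef2. Over all genes, the 6 strongest promoter peaks in no fraction were those of Gm13286 (score 1734), the histone gene H4c18 (1534), Sprr2b (1457), Sprr2k (1333), Gm13283 (1115) and Cxcr6 (981), a chemokine receptor gene.

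The strongest sites found in no fraction were distal. The 10 strongest scored 2695 to 3239, all had a peak at 6h, 12h and in the second 36h arm, 9 had a 36h mature peak, 3 had an ES cell peak and 3 a 12h nascent peak, and none had a 36h nascent peak or lay within 1 kb of a gene end. One of them (chr13:86100476-86101173, score 3101) lay 53681 bp from Cox7c, of cytochrome c oxidase, and a further one (chr16:25813005-25813616, score 2905) lay within Trp63, the p53 relative of stratified epithelia. Of the 1000 strongest peaks in no fraction, which scored 1002 or more, 96.5% had a 6h peak, 11.7% an ES cell peak and 4.2% lay within 1 kb of a gene end. Of the 123 ninth-decile peaks in no fraction, 99.2% had a 6h peak, 100% a 12h peak and 61.0% a 36h mature peak. An ES cell peak was present at 16.3% and a 36h nascent peak at 1.63%. Of the 12357 ninth-decile peaks in all 4, the shares were 98.5%, 99.99%, 85.4%, 61.3% and 27.1%. The 6h and 12h counts of the 10 sites were thus those of strong peaks of either class.

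The 10 strongest sites found in all fractions without an ES cell peak scored 10548 to 12962, and all had nascent and mature peaks at 36h. The strongest (chr4:114601289-114602207) lay within Trabd2b, a metalloprotease gene that acts on Wnt proteins. Its authors' scores were 5265, 6345, 4513 and 1304 in Q1 to Q4. A site 55031 bp from Slit3, a guidance ligand gene (chr11:35065775-35066425), scored 10548 at 36h and 3899, 5573, 3615 and 1232 in Q1 to Q4.

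The 14h experiment gave the only replicated measurement of these sites. Its 6 libraries held 55158844, 78677381 and 64844155 counts with aphidicolin and 49440524, 47339515 and 41183769 without. No source says that they came from separate cultures, so the p-values measure the spread between these libraries. Over 138996 regions tested with edgeR's quasi-likelihood test (Benjamini-Hochberg adjusted p under 0.05), 25061 (18.0%) were higher and 24874 (17.9%) were lower with aphidicolin, 35.9% in all. Regions over 36h peaks in no fraction were more often higher, with 9303 (25.7%) higher and 2668 (7.38%) lower of 36141. Regions over peaks in some fractions had 4539 (15.9%) higher and 3183 (11.2%) lower of 28467. Regions over peaks found in all 4 were mostly lower where they changed, with 2955 (6.25%) higher and 17453 (36.9%) lower of 47315. The median log2 fold changes of the 3 classes were 0.15, 0.04 and -0.17, beside 0.02 over all regions. New regions, of which 523 were tested, had 60 higher and 49 lower, with a median of 0.06. The 26550 regions with neither a 36h peak nor a 60h region had 8204 (30.9%) higher and 1521 (5.73%) lower, with a median of 0.26, so that a higher value was not particular to the sites in no fraction. A restriction to regions with a peak in all 6 lists of 14h was added after these values had been seen. There, regions in no fraction had 4794 (20.2%) higher and 2331 (9.81%) lower of 23757, with a median of 0.07. Regions in all 4 had 2360 (5.29%) higher and 17292 (38.7%) lower of 44639, with a median of -0.19. New regions had 21 higher and 33 lower (median -0.06), and regions in some fractions 3016 higher and 2941 lower (median below 0).

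The class medians of log2 CPM (counts scaled to library size) showed the same in each library. Regions in no fraction had medians of 1.42, 1.47 and 1.47 with aphidicolin and of 1.28, 1.27 and 1.33 without. Regions in all 4 had 3.23, 3.23 and 3.23 with aphidicolin and 3.36, 3.34 and 3.33 without. The treated and untreated libraries did not overlap in either class. Stronger regions were lower with aphidicolin in general, so the classes were also compared within deciles of mean log2 CPM. In the sixth decile, 25.7% of the regions in no fraction were higher and 8.27% lower (median log2 fold change 0.11), against 12.1% and 13.9% of the regions in all 4 (median -0.04). The median of the regions in no fraction lay above that of the regions in all 4 in each of the 10 deciles. A scaling by library totals moved the median of all regions to 0.18 and made 14886 of the regions in no fraction higher and 980 lower, against 6756 higher and 8228 lower of those in all 4.

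**Figure D5:**
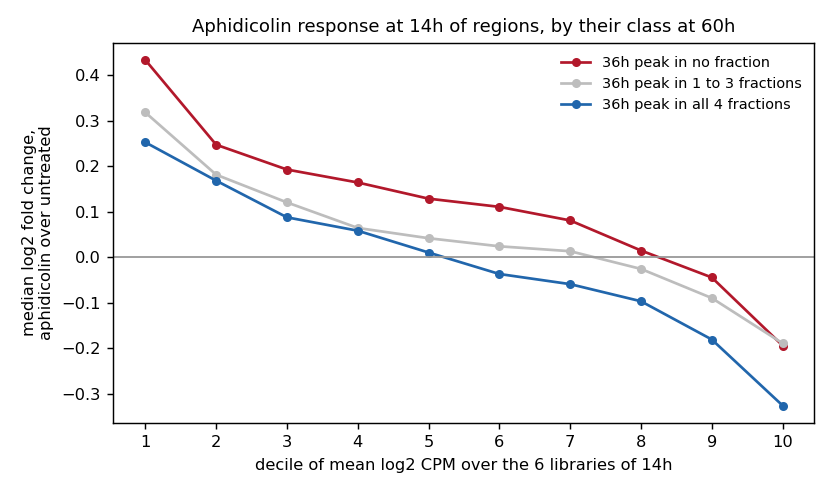
Median log2 fold change, aphidicolin over untreated at 14h (y axis), of regions over 36h peaks found in no (red), 1 to 3 (grey) or all 4 (blue) fractions of 60h, by decile of mean log2 CPM over the 6 libraries (x axis). In the sixth decile the red median is 0.11 and the blue one -0.04.

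Single sites followed their class in part. The site 62562 bp from Qrfpr (chr3:36284837-36285444), found in no fraction at 60h, had log2 CPM values of 2.42, 2.66 and 2.59 with aphidicolin and of 1.69, 1.495 and 1.70 without. The groups did not overlap, and the log2 fold change was 0.94 ± 0.117 (SE, edgeR adjusted p = 6.94e-05). The site nearest to Triml1, at 762915 bp, also rose (log2 fold change 0.66, adjusted p = 0.00182), and the one 10246 bp from H4bc24 fell (log2 fold change -0.37, adjusted p = 0.0097), while the other 7 of the 10 strongest sites in no fraction did not pass. Of the 10 strongest kept sites without an ES cell peak, 8 fell. Among all kept regions in the strongest decile of mean log2 CPM, 9746 of 13342 (73.0%) were lower. The 8 of 10 is thus near the rate of strong kept regions in general. The Trabd2b site had 5.54, 5.57 and 5.55 with aphidicolin against 5.94, 6.02 and 6.00 without (log2 fold change -0.44, adjusted p = 0.000425).

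The printed promoters gave both directions. The region at the Acta2 promoter had log2 CPM values of 5.17, 5.18 and 5.18 with aphidicolin and of 5.74, 5.80 and 5.83 without, a log2 fold change of -0.62 ± 0.0749 (SE, edgeR adjusted p = 6.1e-05). At Sprr2b the values were 1.99, 2.01 and 1.87 with aphidicolin and 1.33, 1.30 and 1.54 without (log2 fold change 0.58, adjusted p = 0.00248). Alpl fell by 0.34 on the log2 scale (adjusted p = 0.011), with 4.04, 3.89 and 3.796 against 4.44, 4.18 and 4.13, and the region that overlaps the Dnmt3l window fell by 0.31 on the log2 scale (adjusted p = 0.0103). Postn did not pass (log2 fold change -0.04, adjusted p = 0.796). S100a4, Otx2 and Iqub had no counted region.

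The peak lists of the 6 libraries at 14h were counted against the same classes. A peak was called at 69.0 ± 4.15% of the sites in no fraction with aphidicolin and at 51.6 ± 1.94% without (SD, n = 3 lists each). For sites in some fractions the shares were 85.5 ± 2.76% and 74.6 ± 1.76%, for sites in all 4 they were 98.0 ± 0.514% and 95.8 ± 0.315%, and for new regions 31.7 ± 4.61% and 20.3 ± 3.53%. Within the seventh decile of the 36h score these shares were 94.3 ± 1.47% and 87.5 ± 0.609% for sites in no fraction and 97.0 ± 0.987% and 92.4 ± 0.614% for sites in all 4. Treated and untreated lists did not overlap in any class, and the exact permutation p was 0.1 (two-sided) in each, the smallest that 3 against 3 allows. The treated libraries were the deeper ones in all cases, and the part of depth in these shares was not tested.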

How the data were processed

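Peaks of the deposited lists carry the authors' score, whose underlying statistic no source states. Per the submitters' processing notes, the build was mm10, and the tools named include MACS2 2.2.0 (peak calling), bedtools 2.26.0 (intervals), Bowtie2 2.2.5 (alignment) and cutadapt 2.2.0 (trimming). Parameters, including any shift for the transposase, were not given in those notes. Peak names in the files show that the 36h list was called on merged replicates and that the 60h lists are consensus lists. The 36h list carries only a nascent-arm abbreviation in its name and was assigned to the 36h bulk group by that name and by elimination. Raw counts per region at 14h were deposited by the authors for 139000 regions, and 138996 passed filterByExpr.

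Here the 60h lists were merged into 1 union and compared with the 36h list by overlap of at least 1 bp. Gene positions and promoters came from RefSeq tables of GRCm38.p6. Counts were tested with edgeR 4.0.16 (TMM, quasi-likelihood) in R 4.3.3 over all regions, without a block. log2 CPM was computed here from the deposited counts with a prior count of 2. Overlaps used Python 3.11.15, pandas 2.3.3, numpy 2.4.6 and scipy 1.17.1. Both steps were tested on simulated data. Within each group, no pair of libraries agreed within sampling noise.

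The named genes are a set of 30 genes, plus up to 4 per list with the most peaks in no fraction or the most new regions, and 10 sites of each of 3 kinds. Other names were chosen after their values were seen. The regions, lists, genes and tests were chosen with earlier results of these data known. The alternatives were another overlap, score threshold, list length, 36h arm, fraction set, stem cell list, window, normalization (DESeq2 1.42.0, library totals), filter, library set and a block.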

Additional observations from a re-analysis of the deposited data

How the results depend on the processing

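Depth and stringency of the lists limit every share: only 3 lists per group at 14h have a spread, and the peak lists carry no counts. Cutting the 36h list by score to the 84465 regions of 60h left 15153 peaks in no fraction and 12318 new regions. Under the other alternatives the counts in no fraction, in all 4 and new stayed within 1.5 times. The ES cell share of peaks in no fraction was 21.2% with an overlap of 50% of the shorter feature, 20.7% with the cut 36h list, 22.6% with the mature arm, 24.1%, 23.3%, 23.7% and 22.4% without Q1, Q2, Q3 and Q4, and 18.9% against 48h EpiLC cells. The ES cell share of new regions was 30.2% at scores of 100 or more, 37.3% with the cut list, 29.2% with the mature arm, 29.9% without Q1 and 29.5% against EpiLC cells.

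With library totals, 14886 regions over peaks in no fraction were higher with aphidicolin and 980 lower, 8486 and 1139 of those in some, 6756 and 8228 of those in all 4, and 117 and 25 of the new ones. In regions with a peak in all 6 lists of 14h, an alternative chosen after seeing the data, 4794 in no fraction were higher and 2331 lower, 3016 and 2941 in some, 2360 and 17292 in all 4, and 21 and 33 of the new regions, whose balance thereby turned round, with a median of -0.06 against 0.06. DESeq2 called 7505 higher and 2258 lower in no fraction and 16939 lower in all 4. Leaving out each library in turn gave 5778 to 10901 higher and 1476 to 2908 lower in no fraction, 2570 to 5669 and 1791 to 3718 in some, 1514 to 4295 and 10947 to 19671 in all 4, and 36 to 69 and 29 to 55 new. No source says whether the numbers in the column names (1 to 3, called a, b and c here) pair the libraries. The deviations of equally numbered libraries correlated at 0.263, 0.0125 and 0.154. Treated a and treated c correlated best with the untreated library of their own number, and treated b with untreated c. A pairing is therefore unknown. With the replicate block the counts were 11020 higher and 3338 lower in no fraction, 5665 and 4063 in some, 4055 and 21181 in all 4, and 73 and 58 new. Over all regions, higher and lower calls were nearly equal (25061 and 24874), and lower calls were the more frequent with DESeq2 (19850 and 23359), with the block (30014 and 30446) and without untreated replicate a (22942 and 24393). The share in no fraction at p53 and senescence loci was 28.7%, and 9.38% within gene bodies, and that of ubiquitous loci 34.0% and 24.4%.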

Other observations

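Chromosomes differed in the share of 36h peaks found in no fraction. It was 51.8% (50.2 to 53.4) of 3627 peaks on chromosome X, above the 37.6 to 45.3% of the autosomes analysed, and 73.9% (53.5 to 87.5) of 23 peaks on chromosome Y. The median score on X, 372, was low, and within score deciles 7 to 9 its share was 6.39% (5.04 to 8.06), inside the 5.56 to 8.93% of the autosomes.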
